A study of Mus musculus with 16 samples.

Results

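The transcripts described here are 32 genes known from the nephron beyond the proximal tubule and from the collecting duct. They were chosen by gene name and found through the accession of each array probe. All 32 had a probe, out of 20145 genes with a named probe on the array, and 31 passed the filter on dim signals among 14575 genes tested. The exception was Scnn1g, a subunit of the epithelial sodium channel, whose probe was not well above background on any of the 16 arrays, so nothing is said of its level. The filter kept a gene when all 4 arrays of any group measured it, and 9 members were not measured on every normal podocyte array and passed through a group where they were higher.

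The RNA came from polysomes of mouse glomeruli, with 4 arrays in each of 4 groups. All mice were labelled C57BL/6N and carried RiboTag, an Rpl22 allele that gains an HA epitope where Cre acts, together with Nphs1-Cre, in which the nephrin gene's promoter directs Cre to podocytes. In the uninjured groups, described in the series text as Nphs1-RiboTag mice without further alleles, podocyte RNA was that of HA-precipitated polysomes, and glomerular RNA that of polysomes left unprecipitated. The 2 injury groups were Nphs1-RiboTag-NEP25 mice, which add human CD25 on podocytes, given 1 dose of 0.625 ng LMB2, an immunotoxin against CD25, for each g of body weight by tail vein. Podocyte RNA was then precipitated after 4 or 7 days. The labels do not say whether arrays hold separate or pooled animals, so p-values measure the spread between these samples. Age is not given in the labels.

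The thick ascending limb and distal convoluted tubule reabsorb salt, calcium and magnesium, while the connecting tubule and collecting duct set the final water, sodium and acid content of the urine. In the collecting duct, principal cells carry the vasopressin-regulated water channels and the sodium channel, and intercalated cells carry the vacuolar proton pump and anion exchangers. These segments lie outside the glomerulus, although the distal tubule touches it at the vascular pole, and their genes serve as markers of tubule RNA in a glomerular preparation.

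Promoter sequences are shown for the 3 members higher after LMB2 that have a RefSeq window and whose groups did not overlap on the arrays at day 7, Elf5, Aqp3 and Tfcp2l1, all of which encode collecting duct proteins: 2 transcription factors and a water channel. Each run is the 250 bases before a RefSeq transcription start in GRCm38.p6, read 5′ to 3′ on the gene's strand. Windows were found for 24 of the 32 members. Elf5 has 2 starts, at the ends of chr2:103411848-103412097 and chr2:103423818-103424067 on the plus strand, and the array does not tell which was used. The Aqp3 window is chr4:41098184-41098433 on the minus strand and the Tfcp2l1 window chr1:118627695-118627944 on the plus strand. Capitals mark matches to TATAAA or TGACNTCA on either strand.
Elf5 start 1: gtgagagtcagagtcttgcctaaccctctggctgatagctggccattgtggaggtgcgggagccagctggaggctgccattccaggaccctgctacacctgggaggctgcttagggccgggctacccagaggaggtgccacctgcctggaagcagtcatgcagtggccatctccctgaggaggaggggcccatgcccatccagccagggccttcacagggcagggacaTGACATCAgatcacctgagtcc
Elf5 start 2: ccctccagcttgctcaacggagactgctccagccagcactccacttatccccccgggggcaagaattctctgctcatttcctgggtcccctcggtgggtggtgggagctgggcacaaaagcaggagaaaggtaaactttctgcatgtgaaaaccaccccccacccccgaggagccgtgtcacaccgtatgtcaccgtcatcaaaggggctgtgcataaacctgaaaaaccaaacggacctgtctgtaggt
Aqp3: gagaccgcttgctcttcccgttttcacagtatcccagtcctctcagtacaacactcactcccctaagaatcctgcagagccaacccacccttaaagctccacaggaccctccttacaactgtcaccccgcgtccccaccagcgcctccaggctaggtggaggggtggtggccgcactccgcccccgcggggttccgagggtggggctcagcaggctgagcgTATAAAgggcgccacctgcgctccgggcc
Tfcp2l1: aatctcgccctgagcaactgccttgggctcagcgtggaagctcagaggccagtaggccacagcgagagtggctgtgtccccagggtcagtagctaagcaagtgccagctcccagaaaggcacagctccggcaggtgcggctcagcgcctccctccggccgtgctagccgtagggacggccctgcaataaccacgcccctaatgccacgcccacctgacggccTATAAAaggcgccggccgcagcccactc
A TATAAA match began 29 bases before the Aqp3 start and 28 bases before the Tfcp2l1 start. It occurred in 6 of the 27 member windows and in 12.37% of all 32851 windows of this length. A TGACNTCA match began 22 bases before the upstream Elf5 start and occurred in no other member window, against 7.49% of all windows. These letters were picked for display after the matches of 14 motifs were seen on either strand. The other 12, some of which overlap one another or these, were TGACGTCA (1.55% of all windows), TGANTCA (6.75%), CCGGAAG (6.91%), a longer form of that ETS motif (0.85%), AACCGGTT (0.12%), the paired CP2-type motif (24.9%), TGTTTAC (3.17%), TGTTTNC (17.84%), AGGTCA (14.02%), CAAAG (48.58%), CATTCC (12.64%) and GGGNNTTCC (4.98%). The matches describe the letters only.

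Each value below is the log2 of the processed intensity minus the log2 of the array's 75th percentile, so 0 is the level of that percentile, and a difference of 1 is a doubling of the signal. Between 49.3% and 57.5% of spots on an array were well above background, the scanner program's flag for a measured spot, and the number of arrays limits the precision. All 31 members tested were well above background on each glomerular array, against 22 to 24 on a normal podocyte array, 22 to 24 at day 4 and 21 to 25 at day 7. Of the podocyte genes listed, 15 of 15 tested were higher in podocyte than in glomerular RNA, against 51.6% of all genes. That list was chosen with earlier results of these data known, so the count describes the precipitation and is no independent check of it. The 8 uninjured arrays shared 1 slide and scan, and the 8 LMB2 arrays another. Injury, NEP25 and slide therefore cannot be told apart in any comparison of LMB2 with normal podocytes, while the other 2 comparisons each lie within a slide.

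Podocyte polysomes of uninjured mice held far less of almost every member than glomerular polysomes did. By limma with Benjamini-Hochberg adjustment over all genes, 30 of the 31 members were lower and none was higher (adjusted p under 0.05), against 27.5% of all genes called lower and 51.6% called higher. At an unadjusted p under 0.05 limma likewise had 30 lower and 0 higher. For the 9 members that normal podocytes did not measure throughout, being lower was in part set by the filter. Of the 22 members well above background on all 8 arrays, 21 were lower, with a median of -3.82, against 22% of all genes so measured. The median log2 difference was -3.75 over the members and 0.38 over all genes tested. With the 6 members known only as a bound set at that bound it was -3.52. In 28 of the 31 every podocyte array was below every glomerular array, as in 25.2% of all genes tested. This contrast sets HA-precipitated against unprecipitated polysomes, so it measures neither the number of cells of a type nor the RNA per cell. In the LMB2 comparisons, fewer cells of a type and less RNA per cell cannot be told apart in bulk RNA such as this.

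**Figure D1:**
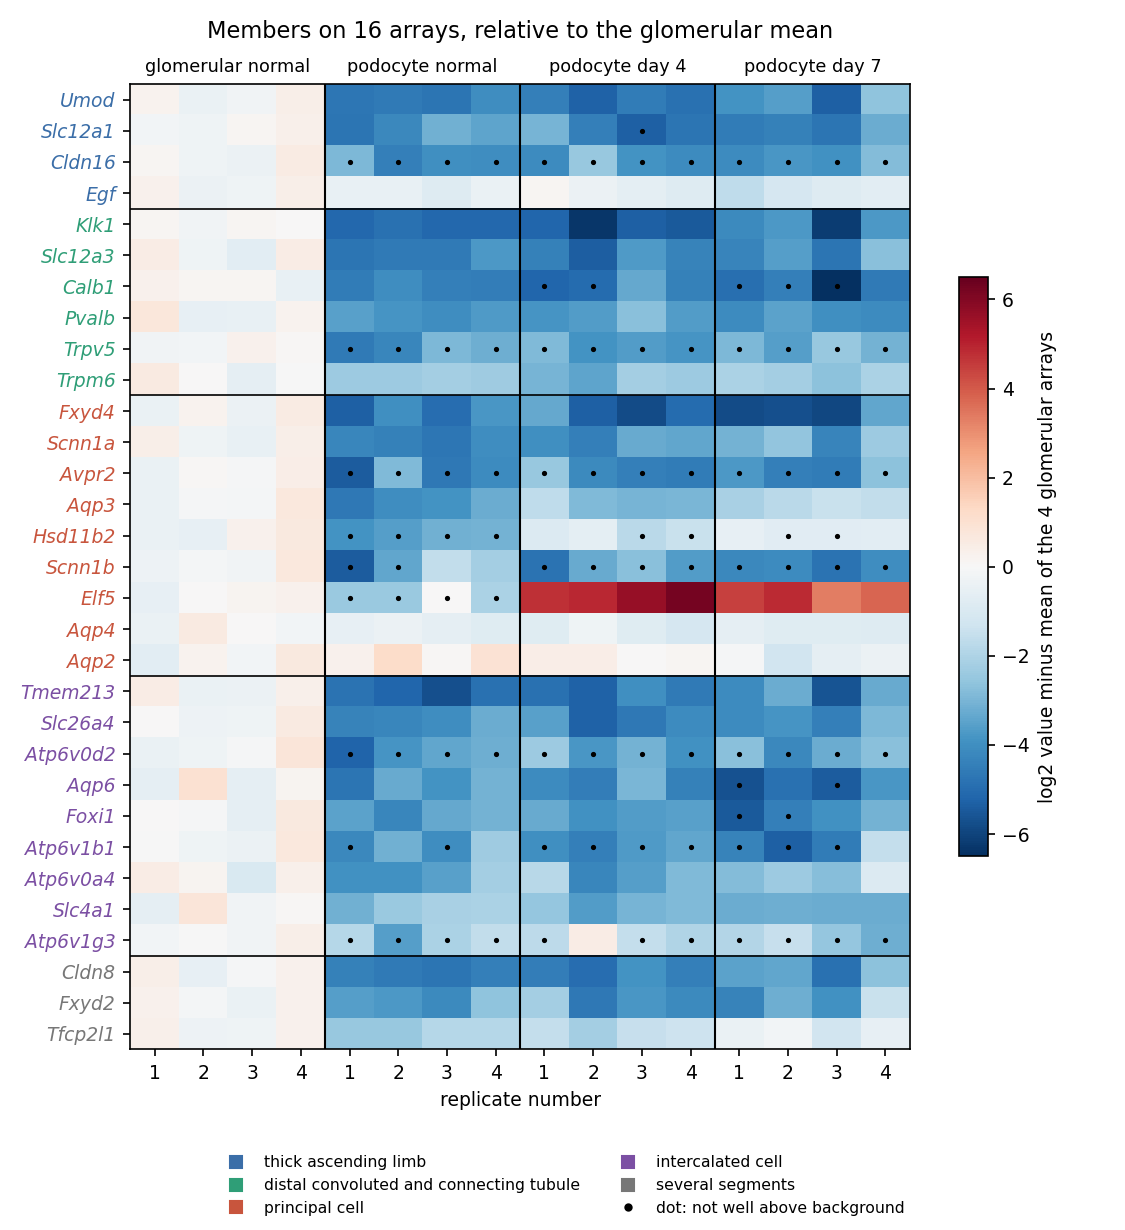
Each row is 1 of the 31 members tested and each column 1 array; colour gives the log2 value minus the mean of the 4 glomerular arrays, dots mark values not well above background, and gene names are coloured by segment. Podocyte columns are blue for most members, while Egf, Aqp4 and Aqp2 stay near 0 and Elf5 is red at day 4 and day 7.

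In the thick ascending limb group all 4 members were lower, with a median of -2.96 when Cldn16 is set at the bound given below. Umod, uromodulin, the most abundant protein of normal urine, measured 6.60, 5.94, 6.14 and 6.73 on the glomerular arrays and 1.65, 1.77, 1.60 and 2.31 on the podocyte arrays. Its podocyte level was 4.36% of the glomerular one (log2 difference -4.52 ± 0.41, SE, n = 4 per group, adjusted p = 1.7e-07). Slc12a1, the sodium-potassium-chloride cotransporter targeted by loop diuretics, differed by -3.87 ± 0.46. Cldn16, a tight junction claudin for magnesium and calcium, was measured only in glomerular RNA, at -2.70, -3.11, -3.20 and -2.29, and on no podocyte array was it well above background. Only a bound can be given for such a gene: the glomerular mean was set against the higher of the podocyte value and the dimmest measured probe of each array, which puts Cldn16 at least 4.16-fold lower (adjusted p = 8.4e-07). Such bounds, here and below, hold only for the scanner program's own background subtraction. Under other processing the log2 difference was as small as -0.76 for Cldn16, -0.59 for Trpv5 and -0.86 for Atp6v0d2. It was as small as -0.47 for Hsd11b2 and -0.29 for Atp6v1g3, each still called.

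Egf, the precursor of epidermal growth factor made in the distal nephron, departed from this. Its glomerular arrays read 5.75, 5.09, 5.23 and 5.85 and its podocyte arrays 5.02, 4.98, 4.66 and 5.07, so the groups just failed to overlap. The podocyte level was 68.4% of the glomerular one (-0.55 ± 0.24, adjusted p = 0.048). The call was lost without any of the 4 podocyte arrays or glomerular replicate 1 or 4 (-0.59 to -0.43), and the difference was -0.23 when array medians were set to 0.

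All 6 members of the distal convoluted and connecting tubule were lower, with a median of -4.08. Klk1, tissue kallikrein, a protease of the connecting tubule, read 6.57, 6.21, 6.57 and 6.45 in glomerular RNA and 1.34, 1.61, 1.36 and 1.36 in podocyte RNA, or 3.06% of the glomerular level (-5.03 ± 0.42, adjusted p = 7.3e-08). Pvalb, the calcium-binding protein parvalbumin of the early distal convoluted tubule, read 4.41, 3.15, 3.18 and 3.90 against 0.13, -0.18, -0.39 and -0.02 (-3.78 ± 0.28, adjusted p = 2.2e-08), and its second probe differed by -4.64. Both genes sat in narrow ranges on the podocyte arrays, far from any glomerular array. Slc12a3, the thiazide-sensitive cotransporter, differed by -4.42 ± 0.44 and Calb1, the calcium buffer calbindin, by -4.38 ± 0.46. Trpv5, the apical calcium channel, was at least 4.62-fold lower. Trpm6, the magnesium channel, differed by -2.32 ± 0.26, the smallest difference among the 5 members of the group measured on every array of both groups.

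Of the 9 principal cell members tested, 8 were lower. Aqp3, the basolateral water and glycerol channel, read 1.25, 1.63, 1.57 and 2.36 in glomerular RNA against -2.96, -2.32, -2.16 and -1.53 (-3.95 ± 0.34, adjusted p = 9.5e-08). Fxyd4, a regulator of the sodium pump, differed by -4.51 ± 0.60, and Scnn1a, the alpha subunit of the sodium channel, by -4.34 ± 0.38. Avpr2, the vasopressin receptor, was called lower, but its probe was not well above background on any normal podocyte array and its second probe was so on 1, so no size is given. Scnn1b, the beta subunit of the channel, differed by -3.15 ± 0.65, with 2 of the 4 podocyte arrays measured. Hsd11b2, which shields the mineralocorticoid receptor from glucocorticoids, read -4.10, -4.16, -3.35 and -3.00 in glomerular RNA and was not well above background on a podocyte array, at least 2.34-fold lower (adjusted p = 7.9e-08).

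The other 3 principal cell members were Elf5, Aqp4 and Aqp2. Elf5, an ETS transcription factor of the principal cell, read -5.04, -4.49, -4.33 and -4.24 in glomerular RNA and was not well above background in normal podocytes, at least 1.24-fold lower (adjusted p = 0.0069). Its podocyte replicate 3 lay within the glomerular range, and after normexp background correction, another way to remove local background, the difference was -0.11 or -0.21 by scaling and no longer called. Aqp4, the second basolateral water channel, differed by -0.57 ± 0.20 with overlapping groups (adjusted p = 0.017), and its second probe by -1.29. The Aqp4 call was lost without podocyte replicate 4 (-0.49), without glomerular replicate 2 (-0.37) and under 4 other scalings or corrections (-0.32 to -0.13).

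Aqp2, the apical water channel that vasopressin moves to the membrane, was the 1 member with no call. It read 0.97, 1.86, 0.75 and 1.64 in podocyte RNA and 0.02, 0.92, 0.50 and 1.31 in glomerular RNA. The groups overlapped (0.61 ± 0.31, adjusted p = 0.083). Each podocyte array was above the glomerular array of the same number, and those numbers pair the samples. With the replicate number as a block the adjusted p was 0.013 and Aqp2 was called higher, as it was without podocyte replicate 3 (0.80) or glomerular replicate 4 (0.82).

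All 9 intercalated cell members were lower, with a median of -3.42 when the 2 known only as a bound are set at it. Tmem213, a small membrane protein of these cells, read 4.52, 3.62, 3.69 and 4.37 in glomerular RNA and -0.73, -1.11, -1.64 and -0.78 in podocyte RNA, or 2.89% of the glomerular level, the widest gap among members measured on every array of both groups (-5.11 ± 0.45, adjusted p = 1.2e-07). Slc26a4, the chloride-bicarbonate exchanger pendrin, read 1.86, 1.54, 1.59 and 2.43 against -2.47, -2.40, -2.16 and -1.39 (-3.96 ± 0.39, adjusted p = 3.5e-07). Foxi1, the transcription factor that specifies intercalated cells, differed by -3.53 ± 0.41. Of the proton pump subunits, Atp6v0a4 differed by -3.40 ± 0.57. Atp6v1b1 differed by -3.42 ± 0.64, with 2 of the 4 podocyte arrays measured, and by as little as -1.31 under the alternatives, still called. Atp6v0d2 was at least 6.68-fold lower and Atp6v1g3 at least 2.78-fold. Aqp6, a water channel of intracellular vesicles, differed by -3.75 ± 0.50 on 1 probe, and its second probe was not well above background on any array. Slc4a1, the anion exchanger band 3, which red blood cells also carry, differed by -2.44 ± 0.30.

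The 3 members shared by several segments were lower as well. Cldn8, a claudin that limits cation leak, read 1.90, 1.01, 1.46 and 1.80 in glomerular RNA and -2.87, -3.05, -3.21 and -2.90 in podocyte RNA (-4.55 ± 0.36, adjusted p = 3.9e-08). Tfcp2l1, a transcription factor of the distal nephron and collecting duct, read 3.01, 2.36, 2.44 and 3.01 against 0.23, 0.22, 0.85 and 0.88, a smaller gap (-2.16 ± 0.26, adjusted p = 2.9e-06) that its second probe shared at -2.24. Fxyd2, the gamma subunit of the sodium pump, differed by -3.52 ± 0.59. For the dimmest members the size depends on the background correction: after normexp the median over the members was -2.13 or -2.17 by scaling, with 28 lower.

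**Figure D2:**
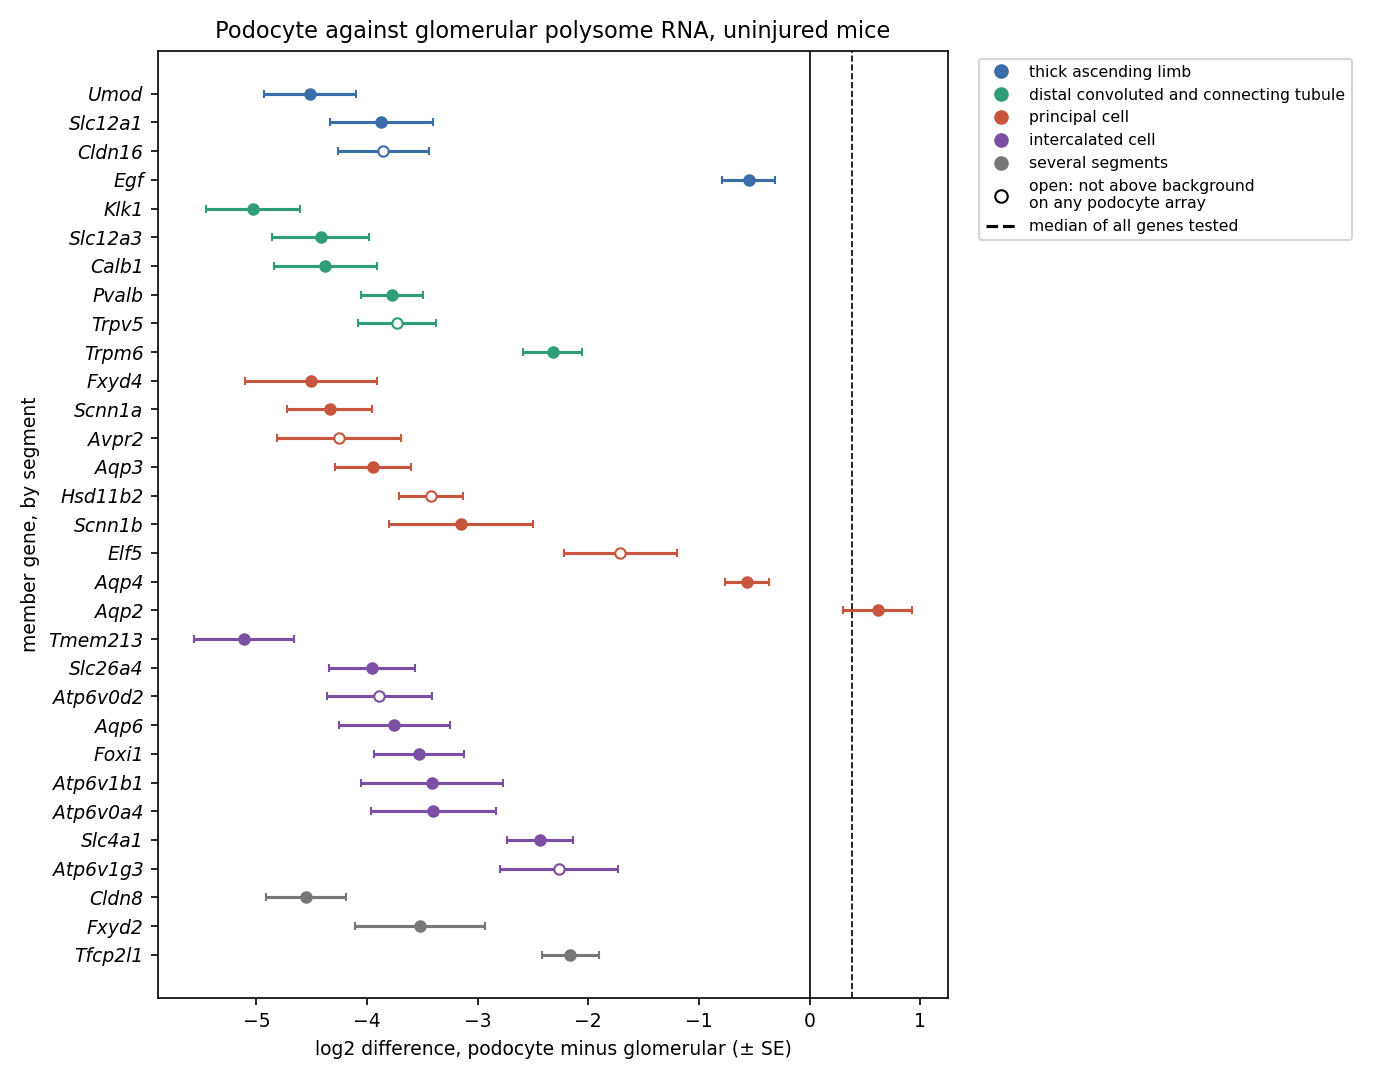
The horizontal axis is the log2 difference of podocyte minus glomerular RNA with its standard error (4 arrays per group) for the 31 members, coloured by segment; open circles mark members whose probe was not well above background on any podocyte array, so that the position is no measured size, and the dashed line is the median of all genes tested, 0.38. Among filled points Tmem213 lies farthest left at -5.11 and only Aqp2, at 0.61, lies right of 0.

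Other genes of the same segments, from a list of 55 of which 52 were tested, were mostly lower too: the median was -3.44, with 42 lower and 6 higher. Of all genes 27.5% were called lower and 51.6% higher. All 52 were well above background on each glomerular array, but only 43 to 44 on a normal podocyte array. For those not measured there, being lower was in part set by the filter. Defb1, a beta-defensin of the tubule, differed by -5.04 ± 0.35 and Stk39, a kinase upstream of the salt cotransporters, by -2.74 ± 0.16, and Tmem52b was at least 5.67-fold lower. Slc26a7, an anion exchanger of the collecting duct, was higher by 2.83 ± 0.24, St6gal1, a sialyltransferase, by 2.58 ± 0.14, and Cul3, a ubiquitin ligase scaffold, by 0.76 ± 0.11.

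The member level of an array, the mean of its 31 values relative to the glomerular means, was -3.73, -3.42, -3.29 and -2.95 on the normal podocyte arrays. It was -2.74, -3.29, -2.93 and -3.09 at day 4 and -3.05, -2.91, -3.46 and -2.29 at day 7. The groups overlapped. The same mean over 19 proximal tubule genes was -3.93, -3.63, -3.77 and -2.28 in normal podocytes, -1.92, -5.23, -4.85 and -4.01 at day 4, and -4.74, -4.00, -3.63 and -1.27 at day 7. The array highest in proximal tubule genes was also highest in the members in each podocyte group: replicate 4 of normal, replicate 1 of day 4 and replicate 4 of day 7. The part of proximal tubule RNA in the results was not tested. Leaving out those 3 arrays, a choice made after seeing these values, gave 29 members lower in podocyte than in glomerular RNA.

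**Figure D3:**
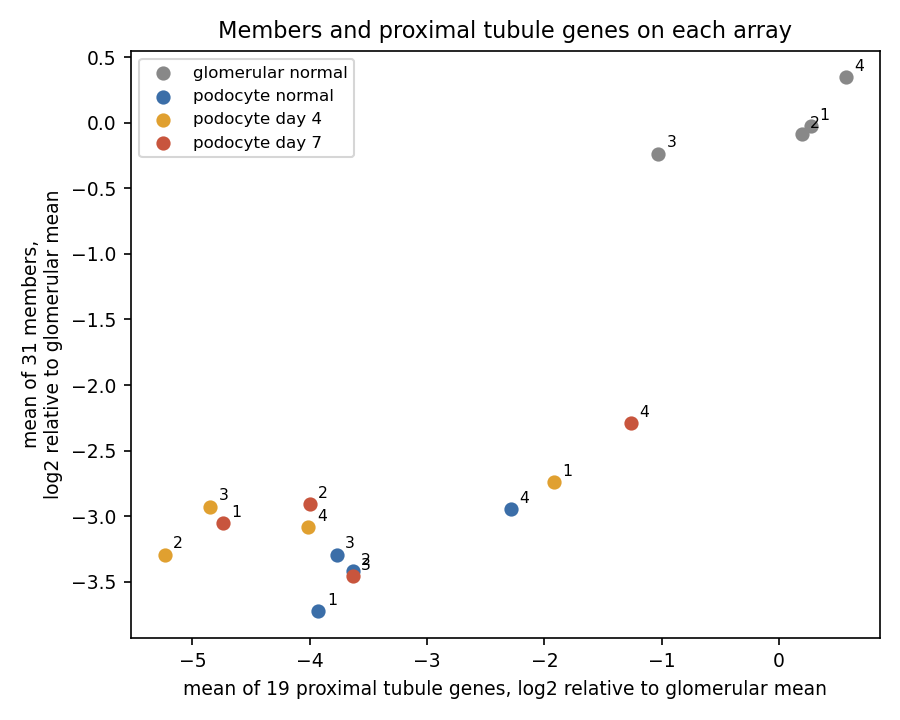
Each point is 1 array, numbered by replicate; the horizontal axis is the mean of 19 proximal tubule genes and the vertical axis the mean of the 31 members, both in log2 units relative to the 4 glomerular arrays. The 4 glomerular arrays lie apart at the top right, and podocyte day 7 replicate 4 is the podocyte array highest on both axes, at -1.27 and -2.29.

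At day 4 after LMB2, 3 of 31 members, Elf5, Hsd11b2 and Aqp3, were higher than in normal podocytes and none was lower, against 12.3% of all genes called higher and 19.9% called lower. The share higher was near that of all genes. All 3 are principal cell genes, and principal cell members were not tested against the others. The limma counts at an unadjusted p under 0.05 were also 3 and 0. The members' median difference was -0.02 and that of all genes -0.12. Setting each array's median to 0 moved the median of all genes to -0.39 and gave 1 member lower and 3 higher. Markers of other cells were also called at day 4, to be read against the same 12.3% higher and 19.9% lower of all genes. Of 12 endothelial genes 3 were lower, with mean levels of -4.51 to -3.88 relative to glomeruli in normal podocytes and -5.21 to -4.21 at day 4, and all 12 were well above background on every array. Of 10 leukocyte genes 3 were higher, with levels of -2.99 to -2.10 and then -2.79 to -1.56 and 6 to 9 genes measured on an array of either group. Of 15 podocyte genes 5 were lower and 1 higher, of 12 mesangial and smooth muscle genes 2 were lower and 1 higher, and of 6 parietal epithelial genes 1 was lower. Their part in the changes of the members was not tested.

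Elf5 was not well above background on a normal podocyte array, at -6.92, -6.94, -4.49 and -6.59, and read 0.22, 0.40, 1.16 and 1.71 at day 4. Every day 4 array was far above every normal one. With the scanner program's background subtraction the gene was at least 52.2-fold higher (means 0.87 and -6.23, adjusted p = 1.2e-07). At day 7 it read -0.07, 0.34, -1.21 and -0.74, by the same subtraction at least 21.3-fold above normal (adjusted p = 4.2e-07). All 8 LMB2 arrays also exceeded the 4 glomerular arrays of uninjured mice, which lay between -5.04 and -4.24, a difference not tested because it crosses slides and preparations. Under the 18 alternatives run the fitted day 4 difference ranged from 3.18 to 7.69 and that at day 7 from 2.15 to 6.40, all called, the lowest after normexp correction. The lowest values lie below the 2 bounds, which therefore do not hold after normexp.

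Hsd11b2 read -7.56, -7.25, -6.79 and -6.72 in normal podocytes, all below the well above background flag. At day 4 it read -4.53, -4.29, -5.43 and -5.12 and at day 7 -4.17, -4.39, -4.40 and -4.32, with 2 of 4 arrays flagged as measured each time. No LMB2 array overlapped the normal ones. The differences were 2.24 ± 0.29 at day 4 (adjusted p = 4.4e-05) and 2.76 ± 0.29 at day 7 (adjusted p = 2.1e-06). As the normal values are near background the sizes are uncertain: over the 16 alternatives that could give a value they ran from 0.25 to 2.44 at day 4 and from 0.33 to 2.88 at day 7, each called.

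Aqp3 rose at both times. It read -2.96, -2.32, -2.16 and -1.53 in normal podocytes, 0.04, -1.17, -1.31 and -1.27 at day 4, and -0.42, -0.05, 0.28 and 0.09 at day 7. Day 4 replicate 1, the array highest in proximal tubule genes, was the highest of its group. The differences were 1.32 ± 0.34 at day 4 (adjusted p = 0.0089) and 2.22 ± 0.34 at day 7, a 4.66-fold rise (adjusted p = 6.6e-05). The day 4 call was lost after normexp with quantile normalization (0.66, adjusted p = 0.052).

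At day 7, 6 of 31 members were higher than in normal podocytes and 2 were lower, against 21.6% of all genes called higher and 36.7% called lower. The median was 0.20 over the 31 members and -0.14 over all genes. Over the 19 members measured on all 8 arrays it was 0.30, against -0.21 over all genes so measured. Of those 19 members 4 were higher and 2 lower, and of the 12433 genes so measured 2308 were higher and 5168 lower. The median of the 31 was -0.05 after quantile normalization and -0.12 with array medians set to 0. When array medians were set to 0 the split was 5 higher and 8 lower, the median of all genes then being -0.47. Quantile normalization gave 5 higher and 4 lower, and normexp correction scaled to the 75th percentile 10 higher and 2 lower. Without day 7 replicate 4 there were 5 higher and 6 lower, and without normal replicate 1 there were 6 higher and 4 lower.

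Tfcp2l1 was among the 6. It read 0.23, 0.22, 0.85 and 0.88 in normal podocytes, 1.16, 0.51, 1.23 and 1.36 at day 4 and 2.27, 2.51, 1.44 and 2.20 at day 7. All day 7 arrays were above all normal and all day 4 arrays. The day 7 level was 2.95-fold the normal one (1.56 ± 0.26, adjusted p = 0.00014), its second probe differed by 1.38, and the day 4 difference was 0.52 ± 0.26 with adjusted p = 0.14.

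Scnn1a read -1.81, -1.97, -2.27 and -1.62 in normal podocytes, -1.58, -2.03, -0.84 and -0.97 at day 4, and -0.64, -0.15, -1.89 and 0.07 at day 7. Day 7 replicate 3 lay within the normal range and the other 3 above it (1.27 ± 0.38, adjusted p = 0.011). The other sodium channel subunit tested, Scnn1b, was not well above background on any LMB2 array and was not called. Cldn8 had the same array low: it read -2.87, -3.05, -3.21 and -2.90 in normal podocytes and -1.95, -1.85, -3.29 and -1.11 at day 7 (0.96 ± 0.36, adjusted p = 0.033). This call was lost under 10 of 19 alternatives, among them leaving out normal replicate 2 or 3 or day 7 replicate 1, 2 or 4 (0.65 to 0.94) and the median set to 0 (0.64).

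**Figure D4:**
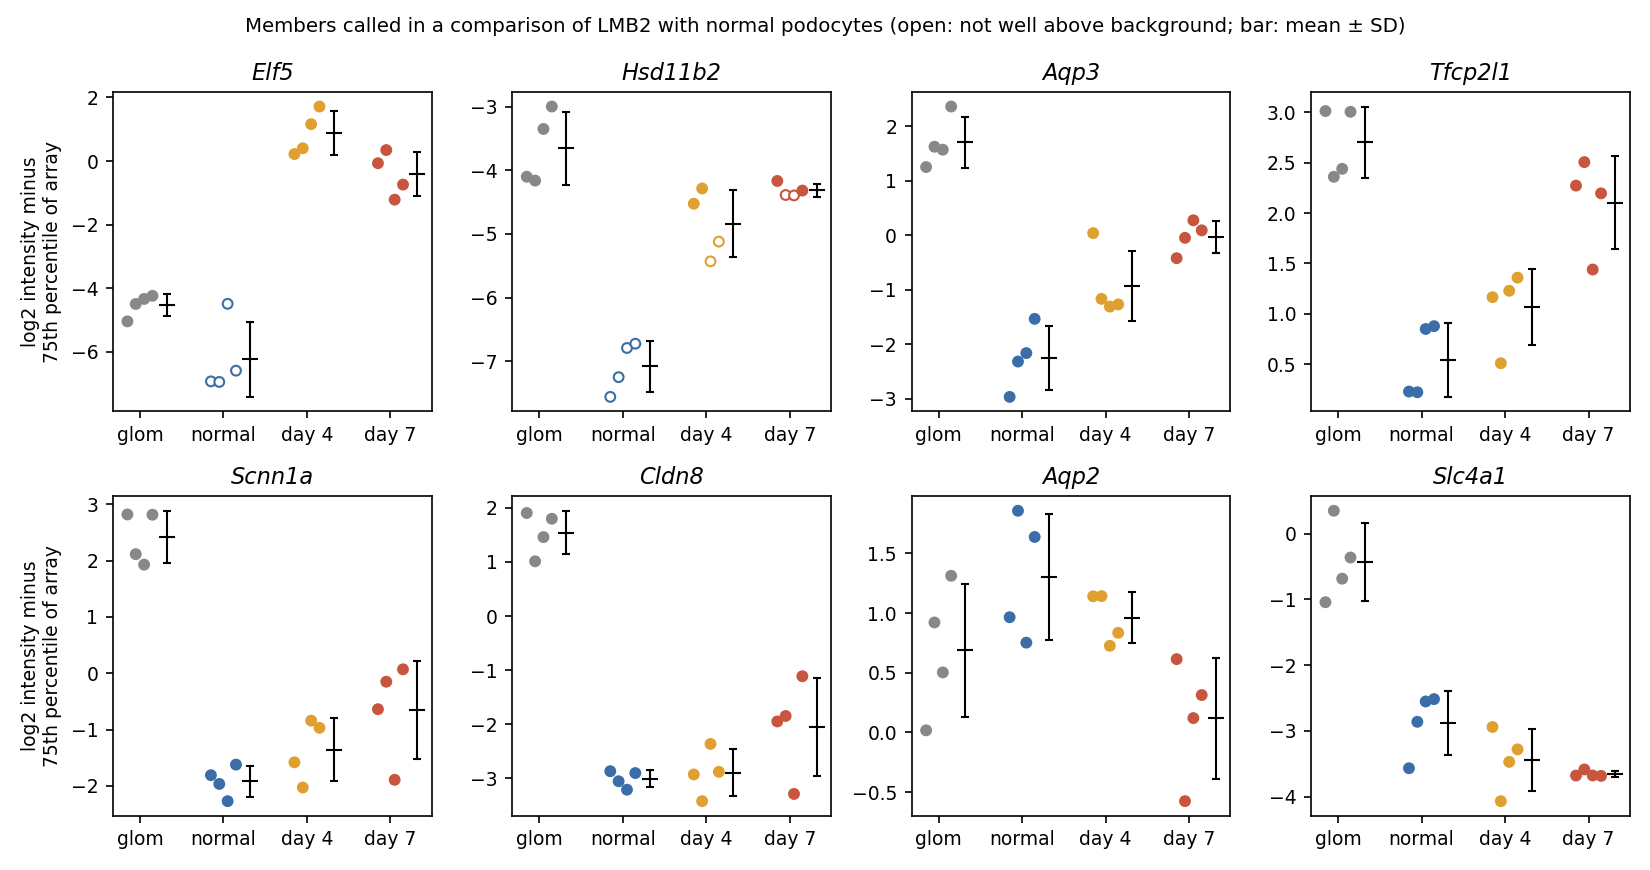
Each panel is 1 of the 8 members called at day 4 or day 7 against normal podocytes; the vertical axis is the log2 intensity minus the array's 75th percentile, points are arrays (open where not well above background) and bars the mean ± SD of 4 arrays. The LMB2 points of Elf5 lie above the glomerular points, and those of Aqp3 lie between normal podocytes and glomeruli.

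Aqp2 and Slc4a1 were the members lower at day 7. Aqp2 read 0.97, 1.86, 0.75 and 1.64 in normal podocytes and 0.61, -0.58, 0.12 and 0.31 at day 7, so the groups did not overlap, and the level was 44.0% of normal (-1.19 ± 0.31, adjusted p = 0.0045). It was called lower under all 19 alternatives run (-1.51 to -0.91). Slc4a1 read -3.57, -2.86, -2.55 and -2.52 in normal podocytes and -3.68, -3.59, -3.68 and -3.69 at day 7 (-0.78 ± 0.30, adjusted p = 0.036). Its call was lost under 10 of 19 alternatives, among them leaving out normal replicate 2, 3 or 4 or any day 7 array (-0.81 to -0.66). Red blood cell genes moved with it: 5 of 6 were lower at day 7, their mean level ranging from -3.84 to -2.93 relative to glomeruli in normal podocytes and from -5.84 to -4.76 at day 7, with Hbb-bs and Alas2 not well above background on any day 7 array. Of all genes 36.7% were called lower in that comparison. The part of the red blood cell genes in the Slc4a1 result was not tested.

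Markers of other cells were also called at day 7, where 21.6% of all genes were called higher and 36.7% lower. The endothelial and leukocyte counts below do not exceed those shares. Of 6 parietal epithelial genes tested 4 were higher and 1 lower, with mean levels of -2.27 to -1.91 in normal podocytes and -2.05 to -0.59 at day 7. Of 12 mesangial and smooth muscle genes 4 were higher, with levels of -3.31 to -2.47 and then -2.22 to -1.68. Of 12 endothelial genes 2 were higher and 2 lower, and of 10 leukocyte genes 2 were higher and 1 lower. Of 19 proximal tubule genes none was called at either time, nor was any at limma's unadjusted p under 0.05, and of 15 podocyte genes 11 were lower and 1 higher at day 7. Their part in the changes of the members was not tested. Without the 3 arrays highest in proximal tubule genes, 3 members were higher and none lower at day 4, and 6 were higher and 3 lower at day 7, with Cldn8 (0.68) and Slc4a1 (-0.65) no longer called.

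No member of the thick ascending limb or of the distal convoluted and connecting tubule was called after LMB2. At an unadjusted p under 0.05 limma had 0 of these 10 at day 4 and 1, Egf, at day 7 (-0.52 ± 0.24, adjusted p = 0.078). The distal convoluted and connecting tubule group had median differences of -0.06 at day 4 and 0.33 at day 7. Umod shows the spread behind this, with 1.92, 1.07, 1.80 and 1.51 at day 4 and 2.48, 2.76, 1.07 and 3.73 at day 7 against 1.65 to 2.31 in normal podocytes. Klk1 behaved alike at day 7, with 2.32, 2.69, 0.27 and 2.71 against 1.34 to 1.61. Day 7 replicate 3 was the lowest of its group in both. Without it, Umod (1.16) and Klk1 (1.15) were called higher than normal, and 9 members in all. Of the 9 intercalated cell genes only Slc4a1 was called, at day 7. At an unadjusted p under 0.05 limma had 2 of these 9 lower and 1 higher at day 7. Besides Slc4a1 these were Aqp6 (-1.18 ± 0.50, adjusted p = 0.055) and Tmem213 (1.07 ± 0.45, adjusted p = 0.054). Pvalb had probes that disagreed at day 7, with differences of -0.13 and -1.995, so its lack of a call rests on the probe chosen. With its probes averaged, limma called Pvalb lower at day 7 than in normal podocytes (-1.06, adjusted p = 0.032). By the same averaging it was lower than at day 4 (-1.17, adjusted p = 0.033).

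**Figure D5:**
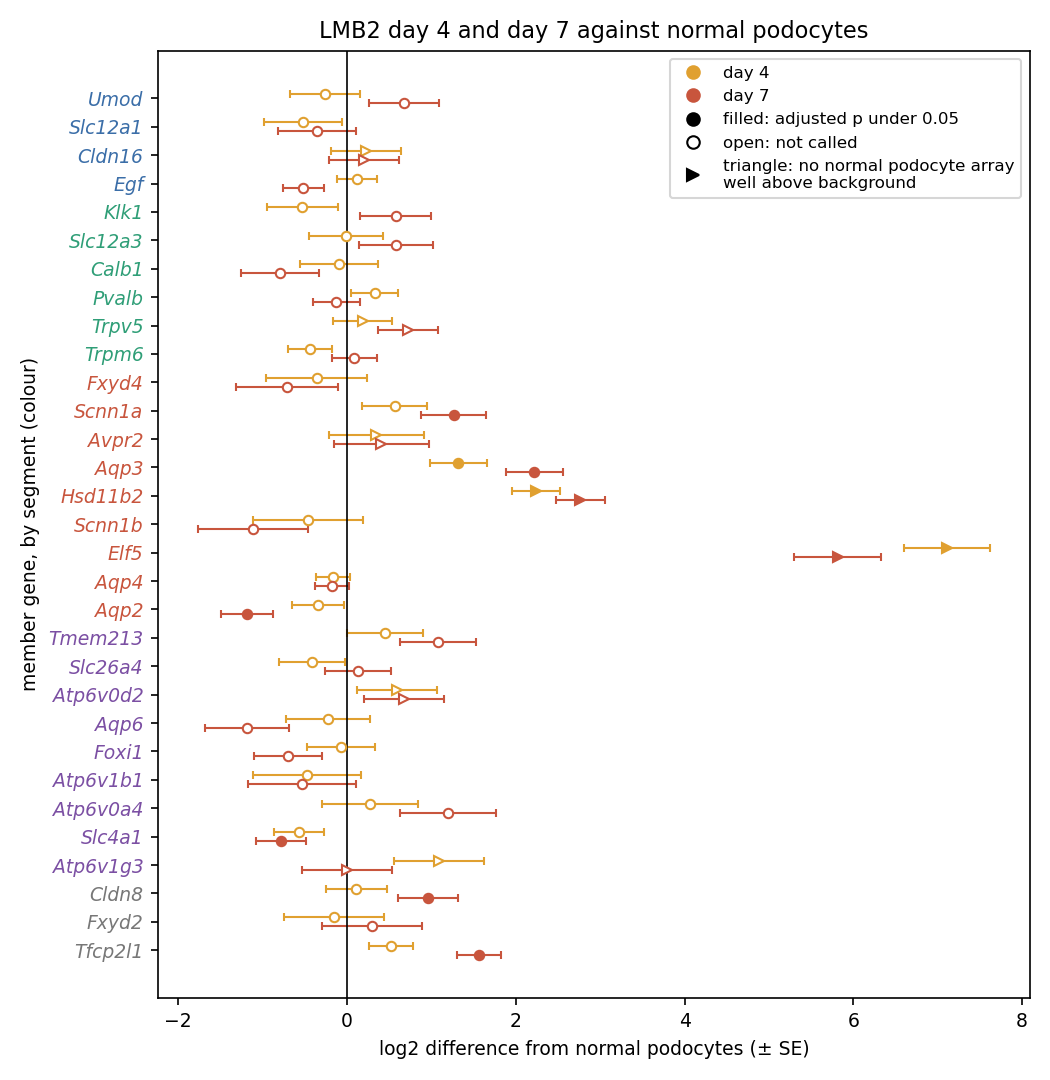
The horizontal axis is the log2 difference from normal podocytes with its standard error (4 arrays per group), for day 4 and day 7 in each of the 31 members; filled points passed limma's adjusted p of 0.05. Triangles, among them those of Elf5 and Hsd11b2, mark members with no normal podocyte array well above background, whose position is no measured size; among the circles Aqp3 at day 7 lies farthest right, at 2.22.

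Among the other distal genes, 4 were higher and 1 lower of 52 at day 4, and 8 higher and 3 lower at day 7. Of all genes 12.3% were called higher and 19.9% lower at day 4, and 21.6% and 36.7% at day 7. The shares of the distal genes did not exceed these. Ehf, another epithelial ETS transcription factor, differed by 3.41 ± 0.48 at day 4 and 3.69 ± 0.48 at day 7, with 1 of 4 normal arrays well above background and second-probe differences of 1.96 and 2.40. Atp6v1c2, a proton pump subunit, differed by 3.36 ± 0.43 and 3.57 ± 0.43, also with 1 normal array measured. Atp2b4, a calcium pump, was higher by 0.74 ± 0.16 at day 4, and Ptger3, a prostaglandin receptor, by 1.36 ± 0.20 at day 7, where its second probe differed by 4.73. St6gal1 was lower at both times (-0.90 ± 0.14 and -1.94 ± 0.14), and Slc26a7 (-0.99 ± 0.24) and Defb1 (-1.03 ± 0.35) were lower at day 7.

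Between day 7 and day 4, 2 members were called. Tfcp2l1 was higher at day 7 by 1.04 ± 0.26 (adjusted p = 0.0075) and Aqp2 lower by 0.84 ± 0.31 on the log2 scale (adjusted p = 0.049), against 13.2% of all genes called higher and 20.7% called lower. The median difference was 0.08 over the members and -0.07 over all genes. Over the 18 members measured on all 16 arrays it was 0.57, against -0.105 over all genes so measured. Aqp2 read 1.14, 1.14, 0.73 and 0.83 at day 4, each above every day 7 array, but its call was lost under 14 of 19 alternatives, among them leaving out any day 4 array or day 7 replicate 2, 3 or 4 (values from -0.92 to -0.61). Elf5 was not called between the times (-1.29 ± 0.51, adjusted p = 0.065), nor was Aqp3 (0.90 ± 0.34, adjusted p = 0.054), Klk1 (1.105 ± 0.42, adjusted p = 0.057) or Egf (-0.63 ± 0.24, adjusted p = 0.055). The count of members higher at day 7 was 6 without day 7 replicate 3.

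Of the 52 other distal genes tested 7 were higher and 4 lower at day 7 than at day 4, against 13.2% and 20.7% of all genes. The share higher was near that of all genes. Sgk1, the aldosterone-induced kinase that acts on the sodium channel, was higher by 1.48 ± 0.34, Mal, a membrane proteolipid of the thick ascending limb, by 1.27 ± 0.32 and Ptger3 by 0.90 ± 0.20. St6gal1 was lower (-1.03 ± 0.14), as were Slc26a7 (-0.86 ± 0.24) and Atp2b4 (-0.54 ± 0.16). The probes of Atp2b4 disagreed in sign here, another of its 3 probes differing by 0.70.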

How the data were processed

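Polysome RNA of 4 groups was hybridised to 1-colour Agilent arrays, 4 per group, and read with Agilent Feature Extraction 11.5.1.1, per the file headers and the submitters' processing notes. The deposited scanner files hold a processed intensity per spot, background-subtracted by that program, with raw and local background intensity and flags, and nothing normalized between arrays. A value table deposited by the authors gives 39430 probes in log2 units, with column medians from -3.17 to -2.51. What set its centring is not stated. Each column was matched to the array from whose log2 processed intensity it differed by the most nearly constant amount. For 6 of the table's 16 columns the array that matched carried a different replicate number of that group. Replicate numbers of normal samples are therefore uncertain between the sources. The change of number was the same in both groups and keeps their pairs, and the scanner files' numbers were used.

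Control and outlying spots were dropped, spots of a probe were averaged (55681 probes, none of a member missing), and 26582 probes were named with 1 symbol by accession in RefSeq tables. Values are log2 processed intensities scaled to the 75th percentile of their array, which ran from 227 to 415. Probes well above background on all 4 arrays of a group were kept, and a gene's kept probe with the highest mean stood for it, with other probes given where they disagree. limma 3.58.1 in R 4.3.3 (lmFit, eBayes) was fitted to 16 arrays with group as the only term (12 residual degrees of freedom) and tested on simulated data; Python 3.11.15 read the files. A gene was called at a Benjamini-Hochberg adjusted p under 0.05 over 14575 genes. A bound replaced the fold where no probe of a gene was well above background on any array of a group and all 4 arrays of the other measured it. It holds only for the scanner program's background subtraction.

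In uninjured mice podocyte and glomerular samples of the same number deviated from their group means together (correlations of 0.42, 0.45, 0.46 and 0.51 over genes), so those numbers pair the samples. The members, the 55 other distal genes and the marker lists were chosen with earlier results of these data known. Genes given value by value are the members called in an LMB2 comparison, the 2 per segment with the lowest adjusted p between podocyte and glomerular RNA and, of the other distal genes, the 3 with the lowest adjusted p per direction and comparison. Egf was added between podocyte and glomerular RNA after its values were seen. Of the marker lists, 12 of 12 endothelial genes and 6 of 10 leukocyte genes were lower in podocyte than in glomerular RNA, against 27.5% of all genes. Alternatives were other normalizations, background corrections, filters, probe rules, sample sets and the authors' table.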

Additional observations from a re-analysis of the deposited data

Results flagged for a closer look

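In 11 of 128 groups of 4 arrays, 1 array stood apart from the other 3 by Dixon's criterion, which chance alone meets in about 1 group in 20. Aqp3 read 0.0406 on day 4 replicate 1 against -1.31 to -1.17 on the others. Fxyd4 read -1.51 on day 7 replicate 4 against -4.03 to -3.85, and Slc12a3 read -0.69 on normal podocyte replicate 4 against -1.70 to -1.54. These 3 arrays are the ones highest in proximal tubule genes in their groups. Klk1 read 0.27 on day 7 replicate 3 against 2.32 to 2.71, and 1.61 on normal podocyte replicate 2 against 1.34 to 1.36. Calb1 read -3.85 on that same normal array against -4.33 to -4.25. Atp6v1g3 read -2.90 on day 4 replicate 2, where alone in its group it was well above background, against -5.33 to -4.94. Cldn16 read -5.27 on that array against -6.94 to -6.71, and Elf5 read -4.49 on normal podocyte replicate 3 against -6.94 to -6.59, neither well above background. The gaps of Aqp4 on day 7 replicate 1 (-2.82 against -3.07 to -3.05) and Slc4a1 on day 7 replicate 2 (-3.59 against -3.69 to -3.68) are small in log2 units.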

How the results depend on the processing

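None of the called members changed direction under the alternatives run, and of 43 calls 35 were kept in every one that gave a value. Between podocyte and glomerular RNA, probes well above background on all 16 arrays left 18 members, of which 17 were lower, array medians set to 0 gave 1 higher and a median of -3.44, and normexp gave medians of -2.13 and -2.17; leaving out arrays gave 28 to 30 lower and 0 to 1 higher. Member levels after normexp were -2.17 and -2.20 (normal), -1.97 and -2.12 (day 4) and -1.81 and -1.98 (day 7). At day 4, the count lower was 1 with medians set to 0, and the count higher was 1 on probes measured on all 16 arrays. At day 7 the count lower was 4 (quantile), 8 (medians), 1 (normexp with quantile) and 1 to 6 without an array, and the count higher 10 after normexp and 5 to 9 without an array. Between day 7 and day 4 the count lower was 0 with quantile, no filter, the authors' table and without the arrays highest in proximal tubule genes, 2 with medians at 0, normexp, all-array probes, averaged probes and the 2 groups alone, and 0 to 2 without an array; the count higher was 2 with quantile and without those arrays, 3 with either normexp or all-array probes, and 1 to 6 without an array; the median was 0.57 on all-array probes and 0.49 in the 2 groups alone. With the replicate block, Aqp2 added 1 higher call in podocyte against glomerular RNA and no other call changed there. Same-numbered LMB2 and normal samples share only a number, and in no comparison with LMB2 did every sample correlate best with its own number; the replicate block there was fitted on the 2 groups alone, where 23 members passed the filter, without Hsd11b2, and gave 1 higher at day 4 (Aqp3 at adjusted p = 0.089) against 2 without the block and, between days, 0 lower and 0 higher (Aqp2 at 0.056, Tfcp2l1 at 0.058; median 0.49). Members without a call changed sign in some setting in 0, 15, 13 and 8 cases (podocyte against glomerular, day 4, day 7, day 7 against day 4) and were called in some setting in 1, 2, 16 and 10. Slide as a block could not be fitted, since each comparison lies within a slide or has a slide per condition. Signal over background limits the dim members: Trpv5, Cldn16 and Atp6v0d2 were measured in glomerular RNA only.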
